A study of Mus musculus with 11 samples.

Results

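The 9 genes described here encode the enzymes that release arachidonic acid and turn it into leukotrienes, prostanoids and hydroxy fatty acids: Pla2g4a, Alox5, Alox5ap, Lta4h, Ltc4s, Alox15, Ptgs1, Ptgs2 and Hpgds. They were chosen by name, as the rows of the count table with these symbols, and all 9 were found among 55486 genes. Blood eosinophils (live CD45+ CD3- CD11b+ F4/80+ cells, low for Ly6g and high in side scatter) were sorted from FVB/N mice bearing metastases of mammary tumours, and their RNA was sequenced by Smart-seq2, which covers whole transcripts from little input. Of the 11 mice, 7 were given cisplatin with aPD1 and aCTLA4 antibodies (treated) and 4 were given control antibody (control), and blood was taken on day 21 after the start of treatment. Cisplatin crosslinks DNA, and the antibodies block the checkpoint receptors PD1 and CTLA4. The sources used here give no ages, none of the libraries is from a mouse that received the drug or the antibodies alone, and all 11 mice had metastatic disease, so the contrast is of the whole combination in diseased mice.

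Arachidonic acid is cut from membrane phospholipids by cytosolic phospholipase A2 (Pla2g4a). Arachidonate 5-lipoxygenase (Alox5), which needs the membrane protein FLAP (Alox5ap), makes the unstable leukotriene A4, and leukotriene A4 hydrolase (Lta4h) turns it into the chemoattractant leukotriene B4 while leukotriene C4 synthase (Ltc4s) couples it to glutathione to give the cysteinyl leukotrienes, which contract airway smooth muscle. The mouse Alox15 enzyme oxygenates arachidonate at other positions, and the cyclooxygenases Ptgs1 (constitutive in many tissues) and Ptgs2 (inducible) open the prostanoid branch, from which Hpgds makes prostaglandin D2. Eosinophils are known as a source of cysteinyl leukotrienes in allergic disease.

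The 250 bases before the start annotated by RefSeq are shown for the enzyme that opens the leukotriene route (Alox5), the one that completes leukotriene B4 (Lta4h) and the cyclooxygenase that was detected in every library (Ptgs1). They are RefSeq sequences on GRCm38.p6, 5′ to 3′ on the strand of the gene. For Lta4h the RefSeq start lies upstream of the GENCODE start given below. Capitals mark matches, on either strand, to the GC box GGGCGG and the ETS-type motif GAGGAA, and neither the TATA box TATAAA nor the GATA-type motif AGATAA was matched in these 3 windows.

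Alox5 (chr6:116461179-116461428, minus strand): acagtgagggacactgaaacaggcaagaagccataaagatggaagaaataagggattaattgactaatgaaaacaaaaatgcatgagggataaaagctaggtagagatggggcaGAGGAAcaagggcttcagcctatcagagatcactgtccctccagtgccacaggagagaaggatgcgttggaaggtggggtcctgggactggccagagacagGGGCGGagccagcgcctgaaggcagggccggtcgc
Lta4h (chr10:93453146-93453395, plus strand): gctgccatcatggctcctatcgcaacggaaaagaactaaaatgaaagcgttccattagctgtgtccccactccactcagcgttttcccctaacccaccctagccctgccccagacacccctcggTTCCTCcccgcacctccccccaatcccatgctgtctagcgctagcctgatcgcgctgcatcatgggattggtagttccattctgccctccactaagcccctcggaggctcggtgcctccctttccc
Ptgs1 (chr2:36230176-36230425, plus strand): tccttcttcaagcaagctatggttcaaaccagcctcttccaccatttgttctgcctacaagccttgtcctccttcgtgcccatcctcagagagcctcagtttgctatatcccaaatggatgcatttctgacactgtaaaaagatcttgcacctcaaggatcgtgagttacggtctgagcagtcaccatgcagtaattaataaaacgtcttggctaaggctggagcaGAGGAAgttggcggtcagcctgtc

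Windows were at hand for 7 of the 9 genes, without Alox5ap and Alox15. The GC box occurred in those of Alox5 and Ptgs2, and in 32.7% of all 32851 windows of this length. GAGGAA occurred in those of Alox5, Lta4h, Ptgs1, Ptgs2 and Hpgds, and in 23.3% of all windows. TATAAA stood in 1 of the 2 windows of Pla2g4a (12.4% of all windows) and AGATAA in none (9.99%). A match describes the letters only.

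The libraries held 5356118 to 8016658 counts in the treated and 3733156 to 6721060 in the control group. All 12 eosinophil markers examined were detected in 10 libraries, and 11 of 12 in treated 3, where the granule peroxidase gene Epx had 0 counts. The summed level of these markers was lowest in treated 3, at 3438 CPM (counts per 1000000, scaled with TMM), against 5056 to 10789 CPM in the other 10 libraries. The summed level of 14 monocyte and macrophage markers was 8523, 8193, 10071 and 17536 CPM in treated 3 to treated 6 and 20955 CPM in control 3, beside eosinophil sums of 3438, 5056, 7709, 5876 and 7542 CPM in the same libraries. These sums are not per length, and in the other 6 libraries the eosinophil sum was the higher of the pair. The summed level of 12 neutrophil markers was 4585 to 13853 CPM in the treated and 5308 to 15824 CPM in the control libraries. It lay above the eosinophil sum in every library but control 1, where it was 5308 against 9728 CPM. Most of the neutrophil sum was Retnlg, with means of 9271 of 9953 CPM in treated and 10261 of 11654 CPM in control libraries. The part of monocytes, macrophages and neutrophils in the levels below was not tested. Control 3 and control 4 stood apart, with globin genes at 28.2% and 20.1% of counts against 0.165% to 4.42% elsewhere, and with 10775 and 11263 detected genes against 12639 or more. The identifiers in the table header begin with 19 for every treated and 20 for every control library, so whatever these digits mark cannot be told apart from the treatment.

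The libraries of sorted blood eosinophils of both groups held transcripts for leukotriene B4 synthesis, with Alox5, Alox5ap, Lta4h and Pla2g4a counted in every library. They also held abundant Alox15 and modest Ptgs1. Which of the sorted cells these transcripts came from was not tested. Ltc4s was low and uneven, Hpgds was close to absent and Ptgs2 was seen in 2 libraries. No enzyme passed the test between treated and control mice. On simulated data the test called 6% of genes with a log2 fold change of 1 in size, so a change of that size would mostly be missed. Of the 9 genes, 7 passed the filter on low counts and entered the test, and 0 of them passed (edgeR quasi-likelihood test, Benjamini-Hochberg adjustment over 11389 genes, adjusted p from 0.626 to 0.992), against 0% of all genes called higher and 0% called lower. At an unadjusted p under 0.05 there was 1 of 7 (Ptgs1), against 6.82% of all genes, and DESeq2 called 0 of the members (lowest adjusted p 0.204), against 0.466% of genes called higher and 0.171% called lower by that tool. Of the 7 tested genes, 4 had a fold change above 0, with a median log2 fold change of 0.06, beside 51.8% above 0 and a median of 0.03 over all genes tested. Without control 3 and control 4 the members' median turned to -0.17, with 3 of 7 above 0. In bulk libraries fewer eosinophils among the sorted cells and less RNA per eosinophil cannot be told apart.

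**Figure D1:**
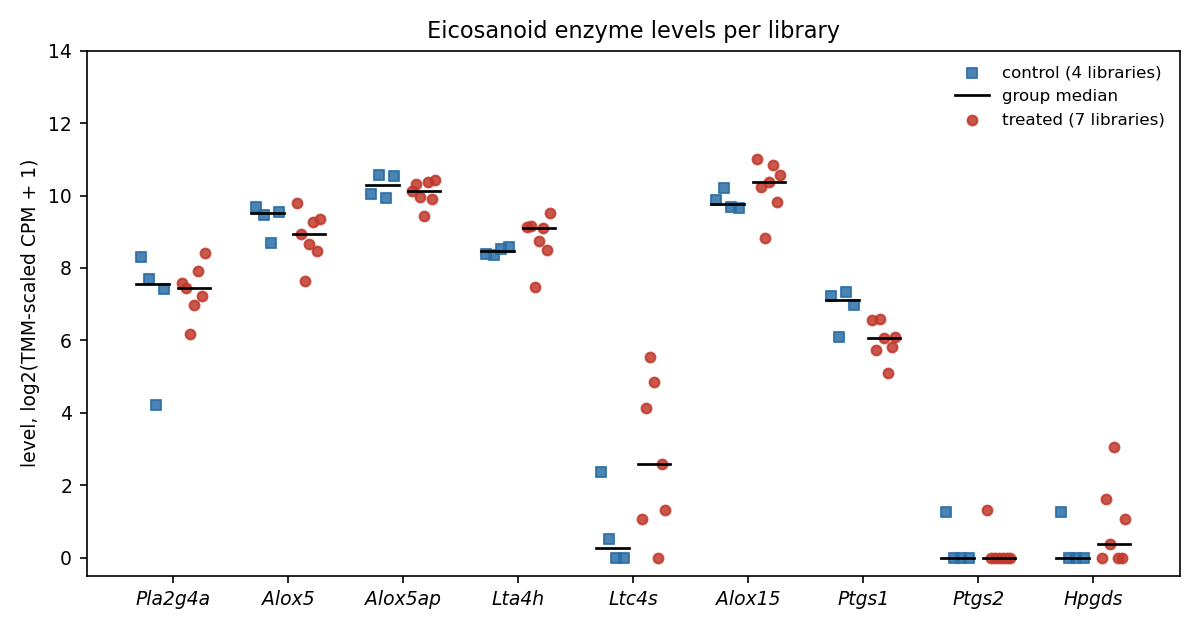
Level of the 9 enzymes in each library, as log2 of TMM-scaled CPM plus 1, by gene. Squares are the 4 control and circles the 7 treated libraries, and bars are group medians. The groups overlap for every gene, and Ptgs2 lies at 0 in 9 libraries.

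Compared per length, as CPM per kilobase of exon, Alox5ap was the most abundant of the 9 at 820 ± 181 (SD, n = 11), followed by Alox15 at 482 ± 192. Alox5 followed at 139 ± 52.5, Lta4h at 71.2 ± 25.2, Pla2g4a at 28.4 ± 15.0 and Ptgs1 at 22.6 ± 10.7. Ltc4s stood at 9.12 ± 14.6, Hpgds at 0.172 ± 0.339 and Ptgs2 at 0.0571 ± 0.127. Within libraries, Alox15 lay above Alox5, Alox5 above Lta4h and Lta4h above Pla2g4a in 11 of 11 on this scale. The step from Alox5 to Lta4h depends on the exon lengths used, 4106 and 6102 bases. In counts not divided by length, the ratio of Alox5 to Lta4h was 0.867, 0.952, 0.984 and 0.885 in treated 2, treated 4, treated 6 and treated 7. Lta4h thus had more counts than Alox5 in those libraries and fewer in the others. Alox5ap exceeded Alox15 in 9 of 11 libraries, and Pla2g4a exceeded Ptgs1, Ptgs1 exceeded Ltc4s and Ltc4s exceeded Hpgds in 8 of 11 each. Ltc4s and Hpgds both had 0 counts in the remaining libraries, treated 5, control 3 and control 4. Hpgds exceeded Ptgs2 in 4 of 11 libraries, and both had 0 counts in 5, so these 2 could not be ordered.

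Pla2g4a (chromosome 1, 149829618 to 149961290, GRCm38), which supplies the substrate for every later step, differed least in its mean. It stood at 71.5 CPM in the lowest, 175 in the median and 342 in the highest treated library, and at 316, 206, 17.6 and 169 CPM in control 1 to control 4. The groups overlapped over most of their range, and control 3 lay far below all others with 44 counts. Its log2 fold change was 0.06 ± 0.54 (SE; edgeR adjusted p = 0.992), which turned to -0.30 without control 3 and to -0.47 without control 3 and control 4. It also turned to -0.16 without treated 7 and -0.01 without treated 5, and rose to 0.50 without control 1, so its direction depended on single libraries.

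Alox5 (chromosome 6, 116410077 to 116461178), the first enzyme of leukotriene synthesis, stood at 197 CPM in the lowest, 490 in the median and 886 in the highest treated library. In control 1 to control 4 it stood at 820, 700, 409 and 753 CPM. The treated library with the most Alox5 exceeded every control, while 3 treated libraries lay below all controls. Means were 514 ± 225 CPM (SD, n = 7) and 670 ± 181 CPM (SD, n = 4), a log2 fold change of -0.38 ± 0.34 (SE; edgeR adjusted p = 0.903). Without treated 3, where Alox5 and the eosinophil markers were both lowest among treated libraries, it went to -0.24, and with the letters of the sample identifiers as a covariate it turned to 0.40. Those letters are KDV for treated 1 and the controls and VIS for treated 2 to treated 7, so that value rests on treated 1 against the controls. Whether the share of eosinophils has a part in this difference was not tested.

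Alox5ap (chromosome 5, 149264767 to 149288153), the partner that presents arachidonate to Alox5, varied least of the 6 members counted in all libraries, with an SD of 0.32 on the log2 scale over all 11. Treated libraries ran from 692 CPM over a median of 1126 to 1381 CPM, and control 1 to control 4 stood at 1051, 1521, 978 and 1493 CPM. No treated library exceeded the highest control, and 2 lay below the lowest. The groups differed by a log2 fold change of -0.18 ± 0.23 (SE; edgeR adjusted p = 0.940), and without treated 4 or without control 2 or control 4 it shrank to -0.09, -0.08 and -0.07. An antisense gene, Gm19719, with 240 counts over all libraries, shares 189 exon bases with it, while Alox5ap had 2442 to 10746 counts in each library.

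Lta4h (chromosome 10, 93453411 to 93484875), which makes leukotriene B4, stood at 177 CPM in the lowest, 548 in the median and 737 in the highest treated library. The 4 controls lay close together, at 335, 327, 367 and 378 CPM. Of the 7 treated libraries 5 lay above every control, and treated 3 lay below them all. Means were 482 ± 179 and 352 ± 24.6 CPM (SD, n = 7 and n = 4), and the log2 fold change was 0.45 ± 0.30 (SE; edgeR adjusted p = 0.852). It was 0.60 without treated 3, 0.32 without treated 7 and 0.17 with the replicate number as a block, and stayed above 0 in all 21 alternatives tried. The block leaves treated 5 to treated 7, which share no number with a control, out of the contrast.

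**Figure D2:**
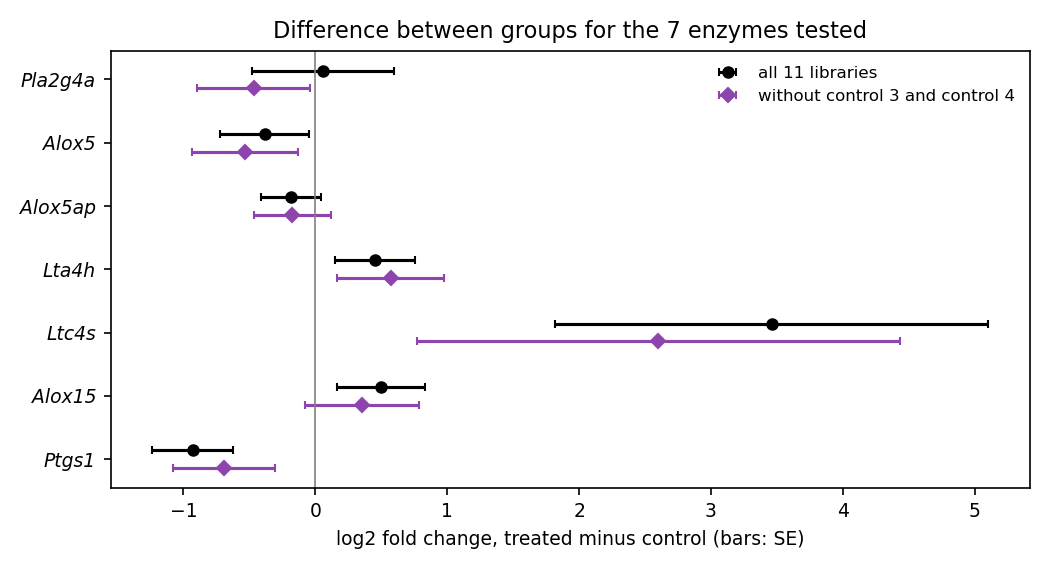
Log2 fold change, treated minus control, of the 7 enzymes that entered the test, with its standard error. Circles use all 11 libraries and diamonds leave out control 3 and control 4. Ltc4s has the largest change and the widest error, at 3.46 ± 1.64, and Pla2g4a changes side.

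Ltc4s (chromosome 11, 50236461 to 50238616), which commits leukotriene A4 to the cysteinyl branch, had the largest fold change and the most uneven counts of the 7 tested genes. It had 9, 104, 308, 235, 0, 30 and 11 counts in treated 1 to treated 7, and 33, 3, 0 and 0 counts in control 1 to control 4. In CPM these were 1.11, 16.4, 45.3, 27.7, 0, 5.02 and 1.51 in the treated and 4.19, 0.424, 0 and 0 in the control libraries. Treated 2, treated 3, treated 4 and treated 6 lay above every control, and the other 3 treated libraries lay within the control range. A count of 0 allows up to 0.435 CPM in treated 5, 1.20 CPM in control 3 and 1.09 CPM in control 4 (3 counts per library, counting error only).

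The log2 fold change of Ltc4s was 3.46 ± 1.64 (SE; edgeR adjusted p = 0.731), with means of 13.9 ± 17.2 CPM (SD, n = 7) and 1.152 ± 2.03 CPM (SD, n = 4). It was 2.60 without control 3 and control 4 and 6.03 without control 1. With the identifier letters as a covariate it was -0.16, which again rests on treated 1. The antisense gene Gm26542 shares 268 exon bases with Ltc4s and had 118 counts over all libraries, and the labels do not say whether counting used strand.

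The libraries with most Ltc4s were those with most resident macrophage markers. The summed level of the 12 markers, among them the complement genes C1qb and C1qc, was 360, 1160, 497 and 160 CPM in treated 2, treated 3, treated 4 and treated 6. In the other treated libraries it was 7.78 to 24.8 CPM and in the controls 8.01 to 14.5 CPM. Of the defining markers, Timd4 had 0 counts in all controls and in treated 1, Clec4f had 0 in all 11 libraries, and between 9 and 11 of the 12 were detected in those 4 libraries against 1 to 7 elsewhere. B cell markers were also highest in treated 3 and treated 4, at 5010 and 5999 CPM, against 1396 to 2986 in the other treated and 793 to 2858 CPM in the control libraries. The part of other cell types in the Ltc4s level was not tested.

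Hpgds (chromosome 6, 65117293 to 65144908), the haematopoietic prostaglandin D synthase, did not pass the filter on low counts and has no test. It had 13, 2, 62 and 8 counts in treated 2, treated 3, treated 4 and treated 7, 11 counts in control 1 and 0 counts in the other 6 libraries. Its highest level, 7.31 CPM, was in treated 4. That library also had the highest summed level of basophil and mast cell markers, 868 CPM against 21.0 to 77.7 in the other treated and 16.0 to 207 CPM in the control libraries. The mast cell protease genes Cpa3, Cma1 and Tpsb2 made up most of this sum, at 377, 264 and 158 CPM, while the IgE receptor genes Fcer1a (0 counts) and Ms4a2 (0.118 CPM) were at or near 0 there. The part of mast cells in the Hpgds level was not tested.

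**Figure D3:**
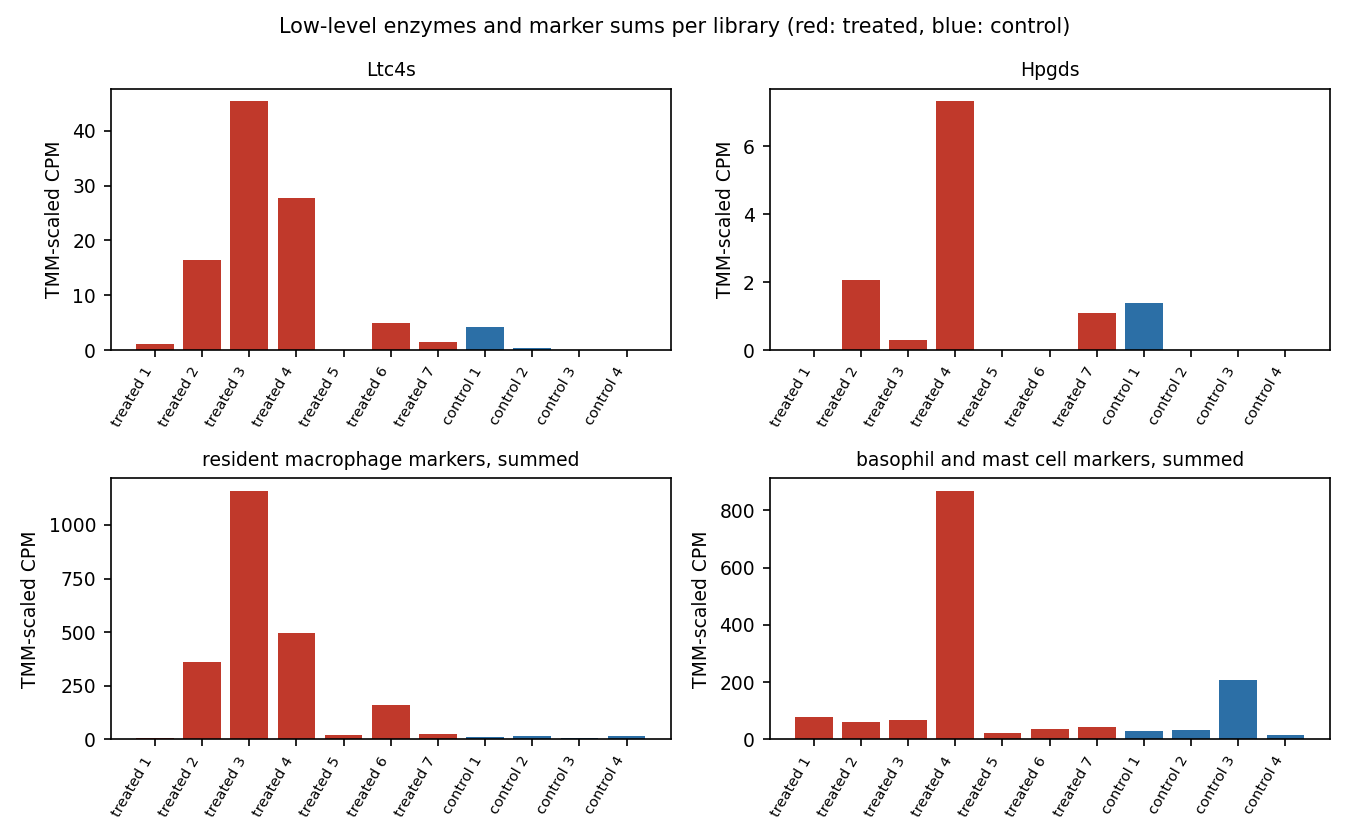
Levels of Ltc4s and Hpgds (top) and summed levels of resident macrophage and of basophil and mast cell markers (bottom) in each library, in TMM-scaled CPM on linear axes from 0. Red bars are treated and blue bars control libraries. Ltc4s is highest in treated 3 (45.3 CPM), as is the resident macrophage sum. Hpgds is highest in treated 4 (7.31 CPM), as is the basophil and mast cell sum.

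Alox15 (chromosome 11, 70344152 to 70352031), the mouse lipoxygenase that is also a marker gene of resident peritoneal macrophages, ran from 455 CPM in the lowest over 1326 in the median to 2046 in the highest treated library. Control 1 to control 4 stood at 931, 1194, 824 and 804 CPM. Of the 7 treated libraries, 5 lay above every control and treated 3 lay below all of them. The log2 fold change was 0.50 ± 0.33 (SE; edgeR adjusted p = 0.852). It was 0.26 with the replicate number as a block, 0.35 without control 3 and control 4, 0.65 without treated 3 and 1.13 with the identifier letters as a covariate, and was above 0 in all 21 alternatives. Treated 3, with the lowest Alox15, had the highest resident macrophage sum and the lowest eosinophil marker sum of the 11 libraries. The part of either cell type in the Alox15 level was not tested.

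Of the ratios between members, 1 separated the groups. Among the 15 ratios of the 6 members with counts in every library, examined after their values had been seen, the count ratio of Alox15 to Alox5 was 2.31, 2.45, 2.31, 3.28, 2.996, 2.54 and 2.31 in treated 1 to treated 7. It was 1.14, 1.71, 2.01 and 1.07 in control 1 to control 4, so every treated library lay above every control. Of 7831 other genes with counts in all libraries, 1.7% had a ratio to Alox5 that separated the groups in this direction and 0.0128% in the other. With Alox15 as the denominator, 0.575% separated lower in treated and 0.0383% higher. A ratio within a library does not depend on the scaling, and it shows only that the 2 genes differed unequally between the groups. No member separated the groups by its own level, against 0.509% of genes with every treated library higher and 0.43% with every treated library lower.

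Ptgs1 (chromosome 2, 36230426 to 36252272), the constitutive cyclooxygenase, had the smallest p of the members. It stood at 33.5 CPM in the lowest, 65.4 in the median and 94.8 in the highest treated library, and at 150, 67.2, 162 and 124 CPM in control 1 to control 4. Of the 7 treated libraries 5 lay below every control, and control 2 lay inside the treated range. Means were 66.0 ± 22.1 CPM (SD, n = 7) and 126 ± 42.1 CPM (SD, n = 4), with a log2 fold change of -0.93 ± 0.31 (SE; unadjusted p = 0.00869, adjusted p = 0.626, edgeR), the gene being 142nd of 11389 by p. It was -0.69 without control 3 and control 4 and -0.43 with the identifier letters as a covariate, and stayed below 0 in all 21 alternatives. Gm43621 on the opposite strand shares 148 exon bases with Ptgs1 and had 56 counts over all libraries, against 231 to 1182 counts of Ptgs1 in each.

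Platelets are known to carry Ptgs1, together with the platelet lipoxygenase Alox12. The summed level of 12 platelet markers was 417, 275, 12247 and 10301 CPM in control 1 to control 4 and 1006 to 3496 CPM in the treated libraries. Alox12 had the same order among the controls, at 28.03, 0, 1294 and 1260 CPM, and stood at 131 to 365 CPM in treated libraries. Ptgs1 did not: control 1, with the second lowest platelet sum, had 150 CPM of Ptgs1, close to the 162 CPM of control 3. The log2 fold change of Alox12 went from -1.51 to 4.03 without control 3 and control 4, and that of Ptgs1 from -0.93 to -0.69. These are values side by side, and a share of platelet RNA in the Ptgs1 level was not tested.

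**Figure D4:**
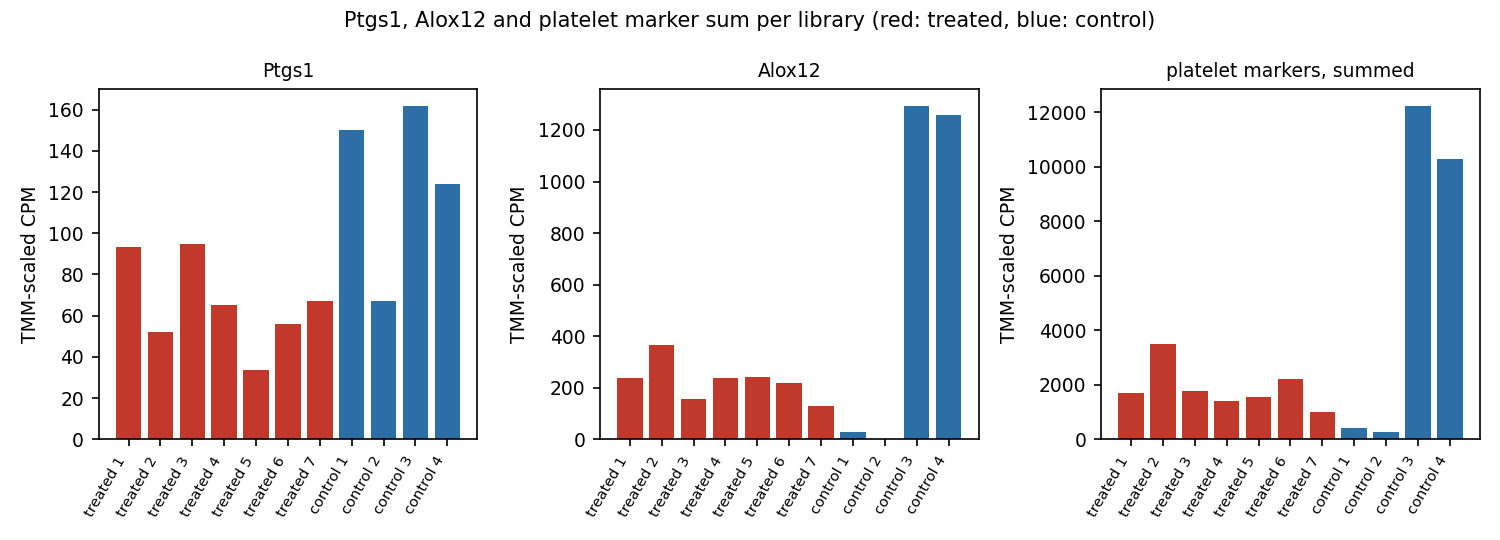
Levels of Ptgs1, Alox12 and the sum of 12 platelet markers in each library, in TMM-scaled CPM on linear axes from 0. Red bars are treated and blue bars control libraries. Alox12 and the platelet sum are highest in control 3 and control 4. Ptgs1 is highest in control 3 (162 CPM), followed by control 1 (150 CPM) and control 4 (124 CPM).

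Ptgs2 (chromosome 1, 150100031 to 150108227), the inducible cyclooxygenase, had 12 counts in treated 1, 11 counts in control 1 and 0 counts in the other 9 libraries. It did not pass the filter, and no fold is given. A count of 0 allows 0.354 to 1.20 CPM depending on the library.

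The rest of the pathway was read from 68 further genes in 5 lists by role, all present in the table, of which 45 passed the filter. None passed the test over all genes (edgeR, lowest adjusted p 0.355), 23 had a fold change above 0 and 22 below, and the median log2 fold change was 0.03. An unadjusted p under 0.05 was seen for 3 of the 45, against 6.82% of all genes, so this count is near the background. Gpx4 is one of them, and Pla2g15 and Dpep2 are named after their values were seen. Gpx4, which reduces lipid hydroperoxides, had 348, 464, 785 and 670 CPM in control 1 to control 4 and 187 to 334 CPM in treated libraries, without overlap. Of all genes tested, 0.43% had every treated library below every control library. The edgeR test did not call Gpx4 (adjusted p = 0.355). DESeq2 called it lower (adjusted p = 0.00196), as it did 0.171% of genes. The log2 fold change of Gpx4 went from -1.23 to -0.71 without control 3 and control 4, its 2 highest libraries. Pla2g15, a lysosomal phospholipase, had a fold change of 0.76 ± 0.35 on the log2 scale (SE; edgeR adjusted p = 0.721), and 0.26 without those controls. Dpep2, a dipeptidase that converts leukotriene D4 to E4, had one of 3.30 ± 1.39 (SE; edgeR adjusted p = 0.672; of its 2 rows in the table, the one with more counts) at 0.823 to 15.1 CPM in treated and 0 to 2.00 CPM in control libraries.

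Of the genes of arachidonate release and re-acylation, 6 of 11 tested had a fold change above 0 (median 0.13). The most abundant was Pla2g7, the secreted phospholipase that inactivates platelet-activating factor, with means of 3939 ± 1708 CPM over the 7 treated and 4649 ± 908 CPM over the 4 control libraries (± SD, here and below). Lpcat2, which makes platelet-activating factor and its precursor, stood at 611 ± 175 and 726 ± 303 CPM. Of the genes that assist leukotriene synthesis, export or break leukotrienes down, 4 of 10 tested were above 0 (median -0.09, and 0.12 with 5 above 0 without control 3 and control 4). Cyp4f18, the mouse hydroxylase that inactivates leukotriene B4, reached 4574 ± 2012 and 3726 ± 849 CPM, and Mgst1, a microsomal glutathione transferase of the same protein superfamily as Ltc4s and Alox5ap, 360 ± 149 and 387 ± 141 CPM.

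**Figure D5:**
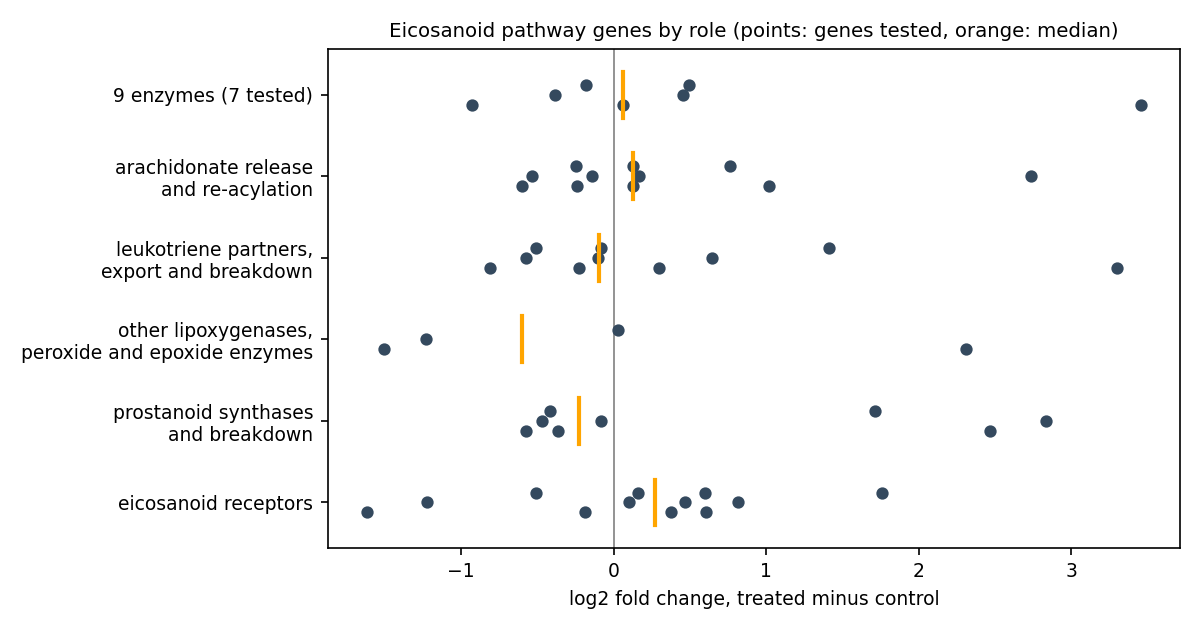
Log2 fold change, treated minus control, of every eicosanoid gene that entered the test, by role. Points are genes and orange lines are list medians. The 5 list medians lie between -0.60 and 0.27 and that of the 7 enzymes at 0.06, and no gene passed the test.

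Among other lipoxygenases and enzymes of peroxides or epoxides, 2 of 4 tested were above 0 (median -0.60, and 0.44 without control 3 and control 4), with Alox12 and Gpx4 as above. Of prostanoid synthases and breakdown enzymes, 3 of 8 were above 0 (median -0.22). Tbxas1, thromboxane synthase, had levels of 728, 767, 535 and 529 CPM in control 1 to control 4 and 289, 475 and 775 CPM in the lowest, median and highest treated library (log2 fold change -0.42 ± 0.25, SE; adjusted p = 0.823, edgeR). Akr1b3, an aldo-keto reductase, stood at 43.8 ± 15.4 and 56.3 ± 5.64 CPM. Of the receptors, 8 of 12 were above 0 (median 0.27, and 1.40 without control 3 and control 4). Ptafr, the receptor of platelet-activating factor, stood at 1012 ± 312 and 904 ± 289 CPM, and Ltb4r1, the high-affinity leukotriene B4 receptor, at 306 ± 72.7 and 349 ± 27.7 CPM, so the receptor for the product of Lta4h was expressed in both groups. Cysltr1, a receptor of cysteinyl leukotrienes named after its values were seen, was at 0 in 3 of 4 controls and at 98.2 CPM in control 3, against 0 to 31.5 CPM in treated libraries.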

How the data were processed

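RNA of sorted blood eosinophils from 7 treated and 4 control mice was sequenced, and the deposited table holds raw counts by Ensembl identifier. The submitters' processing notes name GRCm38, bcl2fastq (2.20.0.422), HISAT2 (2.10) and SAMtools (1.15.1). Counter, strand setting and annotation were not stated, so antisense or overlapping genes may share reads. Of 55486 genes, 55140 matched GENCODE M21 by identifier. A row without a gene held 0 counts and was dropped. No 2 libraries were duplicates (lowest chi-square per gene 55.2 over 55 pairs).

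Groups came from the titles. The test was edgeR's (4.0.16, R 4.3.3) quasi-likelihood test with robust dispersions, TMM, the filterByExpr filter and p-values adjusted by Benjamini-Hochberg over 11389 genes (threshold 0.05, common biological coefficient of variation 0.828). On simulated data it called 6%, 70% and 98% of genes given log2 fold changes of 1, 2 and 3 in size (50 genes each). Changes were placed in the more abundant genes only, so genes as low as Ltc4s were not covered. The larger changes stood in the same simulated table as those of 1, which loosens the adjustment, and counts were drawn for each gene independently. With 0 genes called in the real data, the shares found there may be lower. Fold changes are treated minus control. CPM use TMM-scaled library sizes, and exon lengths are unions of GENCODE M21 exons. No molecular identifiers were used, so limits cover counting error only.

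The members, lists and rules were chosen with earlier results of these data known. Named were the 9 members, the 2 most abundant tested genes of each pathway list and, for members with counts in all libraries, the 3 genes with the most similar pattern. Exceptions among pathway genes are marked in the text. The marker genes Epx, Timd4, Clec4f, Cma1, Tpsb2, Fcer1a and Ms4a2 were named for their values, and are not the 2 most abundant of their lists. Alternatives were 2 other scalings, DESeq2 1.42.0, limma-voom (limma 3.58.1), 2 other filters, covariates, a replicate block, another threshold, and omission of libraries.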

Additional observations from a re-analysis of the deposited data

Results flagged for a closer look

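Of the 56 groups of values examined (members, the most abundant pathway genes and marker sums, in each group), 11 held a library whose gap to its nearest neighbour was large for the range of its group. The cut-offs flag about 1 group in 20 where values are normally distributed. These levels were not transformed and include zeros, so that rate does not apply and the 11 are not set against chance. A group with 1 detection has a gap equal to its range, so it is flagged whatever its level. Ltc4s in control 1 (4.19 CPM, next 0.424), Hpgds in control 1 (1.40 CPM, next 0), Ptgs2 in control 1 (1.40 CPM, next 0) and Ptgs2 in treated 1 (1.48 CPM, next 0) were each the only or nearly the only detection in their group. Hpgds in treated 4 stood at 7.31 CPM (next 2.05). Gpx4 in treated 2 stood at 334 CPM (next 248) and Ptafr in treated 7 at 1613 CPM (next 1070). Of the marker sums, that of monocytes and macrophages was 20955 CPM in control 3 (next 4303), that of resident macrophages 1160 CPM in treated 3 (next 497), and that of basophils and mast cells 868 CPM in treated 4 (next 77.7) and 207 CPM in control 3 (next 32.3).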

How the results depend on the processing

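Under edgeR and limma-voom 0 genes were called in each setting, at an adjusted p of 0.1 with all libraries, and with any library left out (0 to 0 higher and 0 to 0 lower). DESeq2 called 60 genes higher and 22 lower, none of them a member, and in the edgeR test 777 genes had an unadjusted p under 0.05. Members with a fold change above 0 numbered 3 to 4 in all settings, libraries left out included (3 to 4), of 7 tested, or of 6 under the stricter filter. Of 146 member values under alternatives, 139 kept their direction and stayed short of the threshold and 7 reversed. Alox5 turned to 0.402 and Ltc4s to -0.158 with the identifier letters as a covariate. Pla2g4a turned to -0.0456 with detected genes as a covariate, to -0.468 without control 3 and control 4, and had values from -0.300 to 0.499 when single libraries were left out. Ltc4s could not be fitted under the stricter filter, which removed it.

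The replicate numbers are shared by the groups but come from different mice, and same-numbered libraries deviated from their group means with correlations from -0.12 to 0.0203, and 0 of 4 controls correlated best with its own number. With the replicate block 0 genes were called higher and 0 lower, and the number of members above 0 was 4. That fit compares treated 1 to treated 4 with the controls, as treated 5 to treated 7 share no number with a control. At the lower depth of control 3 and control 4, levels under 1.20 and 1.09 CPM cannot be told from 0.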

Other observations

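The genes whose pattern over the 11 libraries was most like that of a member, by the root mean square difference of centred log2 CPM, are given as a description. For Alox5, which itself varied by 0.615 (root mean square), these were Mzt1 (0.209), Pstpip2 (0.240) and Tmem71 (0.242), where the median over all genes was 1.14. For Alox5ap they were Sft2d1 (0.134), Tmem50a (0.151) and Eif4ebp1 (0.152), against a median of 0.986. For Lta4h they were Mfsd14b (0.181), Far1 (0.194) and Wdr1 (0.203), and for Alox15 Wdr1 (0.227), Rps6ka1 (0.227) and Myo1f (0.254), so the actin-regulating gene Wdr1 was among the 3 nearest of both. For Ptgs1 they were Scoc (0.346), Hectd4 (0.373) and Snapc2 (0.384), and for Pla2g4a Pmaip1 (0.288), Zfp101 (0.438) and Ints9 (0.441) against a median of 1.43. Points share libraries and depth, and no test was made.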
